A study of Mus musculus with 12 samples.

Results

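The 41 genes described here encode nuclear subunits of the mitochondrial respiratory chain below complex I: 4 of complex II, 9 of complex III, cytochrome c, 14 of complex IV and 13 of complex V, the ATP synthase. They were chosen by the name of their protein and not by a threshold on a measured value, with earlier results of these data known, and all 41 were found among the 55401 rows of the count table. RNA was sequenced from bulk heart tissue of wild-type mice of the inbred strain C57BL/6J in 12 libraries, 3 from each of 4 groups. Exercised females and exercised males had 6 weeks of treadmill running in 5 weekly sessions of 45 min at a speed of 1 km/h, and sedentary females and sedentary males, matched to them in age, were kept in the cage over that time. No other agent or allele distinguishes the groups, the age itself is not given in the sources used here, and the labels do not say in words that each library is 1 animal. P-values therefore measure the spread between libraries.

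The respiratory chain passes electrons from nutrients to oxygen and uses the energy to pump protons across the inner mitochondrial membrane, and ATP synthase lets the protons flow back to make ATP. Complex II is succinate dehydrogenase, which is also an enzyme of the citric acid cycle. Complex III hands electrons to the small soluble carrier cytochrome c, and complex IV, cytochrome c oxidase, passes them to oxygen. Heart muscle beats without rest and is among the tissues richest in mitochondria. Several subunits come in an isoform typical of heart and skeletal muscle and a ubiquitous one.

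Complexes III, IV and V also contain subunits encoded by mitochondrial DNA. The 6 rows of that kind, mt-Cytb, mt-Co1, mt-Co2, mt-Co3, mt-Atp6 and mt-Atp8, held 0 counts in 11 libraries. In female sedentary 2 alone they carried counts, from 11974 for mt-Atp8 to 3095729 for mt-Co1, so no comparison of nuclear with mitochondrial subunits could be made. Library totals ran from 22204349 to 32566240, the latter in female sedentary 2, where the mitochondrial rows made up 27.3%. The 10 ventricular muscle transcripts examined, such as Myh6, the main myosin heavy chain of the adult mouse heart, summed to 79200 to 93000 CPM, a unit of read counts scaled to the same library size, so the labelled tissue shows its defining markers. Myl7, the atrial myosin light chain, stood at 107, 65.6 and 23.0 CPM in female exercised 2, female sedentary 1 and female sedentary 2, and at no more than 2.33 CPM in the other 9 libraries, and Sln and Myl4, other atrial muscle genes, were highest in the same 3. Not every atrial marker followed them: Nppa, a natriuretic peptide that loaded ventricles also make, was highest in female sedentary 3 at 249 CPM, and ranged from 35.6 to 222 CPM elsewhere. Those 3 female libraries are called the libraries with atrial transcripts below. In bulk tissue, fewer cells of a type and less RNA per cell cannot be told apart.

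Some short sequence motifs were more frequent in promoters of these genes than in all promoters searched, but none was found in most of them. The letters searched, on both strands, were GCGCANGCG for NRF1 (nuclear respiratory factor), CCGGAAG for ETS factors such as GABPA, AAGGTCA for the oestrogen-related receptors (ERR), AANATGGCG for YY1, TGACGTCA for CREB, GGGCGGG for Sp1, CAGCTG for a muscle E-box and TATAAA for a TATA box. These motifs do not contain each other, although 2 matches can overlap. Windows of 300 bases, from 250 before to 50 after the annotated start, were found in the RefSeq table (GRCm38.p6) for 32 of the 41 genes, some with more than 1 start, which gave 35 windows. The NRF1 letters occurred in 37.1% of the 35 windows against 6.24% of all 32817 windows in the table. The ETS letters occurred in 34.3% against 8.86%, and the ERR letters in 14.3% against 4.72%. CREB letters were present in 5.71% against 1.79%, and YY1 letters in 5.71% against 2.37%. For Sp1 the shares were 22.9% and 25.6%, for the E-box 5.71% and 16.3%, and for the TATA box 5.71% and 13.6%. Each share of 5.71% rests on only 2 of the 35 windows. The NRF1 letters, the most frequent, were found in 13 of the 32 genes. The windows compared were not matched for GC content, and the part of base composition in these shares was not tested. A match is a description of the sequence and not evidence that a factor bound there.

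The promoter windows of 6 members on which the expression results below turn are shown 5′ to 3′ on the strand of the gene, with motif matches in capitals and positions counted from the annotated start as 1, with no 0. Cycs is shown as the only member that passed the edgeR test used for all comparisons, Uqcrc1, Uqcrfs1 and Atp5g3 as members that lay higher in exercised hearts of both sexes, and Cox8b and Cox8a as a muscle and a ubiquitous isoform of 1 subunit.
Cycs (chr6:50566520-50566819, minus strand): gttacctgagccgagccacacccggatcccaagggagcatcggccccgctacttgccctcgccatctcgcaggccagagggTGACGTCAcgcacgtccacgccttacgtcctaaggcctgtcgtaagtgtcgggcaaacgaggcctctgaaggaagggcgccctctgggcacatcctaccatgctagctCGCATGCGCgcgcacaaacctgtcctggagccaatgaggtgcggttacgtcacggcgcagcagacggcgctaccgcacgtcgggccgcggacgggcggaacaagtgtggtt
Uqcrc1 (chr9:108936398-108936697, plus strand): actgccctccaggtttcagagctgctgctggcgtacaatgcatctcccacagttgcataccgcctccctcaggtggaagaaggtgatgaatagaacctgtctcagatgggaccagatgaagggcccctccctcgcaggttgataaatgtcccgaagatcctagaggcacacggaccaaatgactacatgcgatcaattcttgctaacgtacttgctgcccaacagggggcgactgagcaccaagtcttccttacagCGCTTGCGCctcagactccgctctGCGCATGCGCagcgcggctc
Uqcrfs1 (chr13:30545267-30545566, minus strand): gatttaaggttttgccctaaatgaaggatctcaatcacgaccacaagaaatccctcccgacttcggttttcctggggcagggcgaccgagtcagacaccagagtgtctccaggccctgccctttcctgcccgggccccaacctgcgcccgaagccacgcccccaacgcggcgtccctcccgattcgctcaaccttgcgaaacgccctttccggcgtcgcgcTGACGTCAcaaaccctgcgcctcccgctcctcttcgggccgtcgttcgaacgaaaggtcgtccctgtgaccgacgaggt
Atp5g3 (chr2:73911277-73911576, minus strand): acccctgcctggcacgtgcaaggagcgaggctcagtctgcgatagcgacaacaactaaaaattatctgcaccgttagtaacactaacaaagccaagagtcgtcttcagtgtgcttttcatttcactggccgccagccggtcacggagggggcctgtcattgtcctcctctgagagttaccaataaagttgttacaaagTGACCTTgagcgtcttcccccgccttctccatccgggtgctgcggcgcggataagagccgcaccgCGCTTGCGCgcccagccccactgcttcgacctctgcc
Cox8b (chr7:140900397-140900696, minus strand): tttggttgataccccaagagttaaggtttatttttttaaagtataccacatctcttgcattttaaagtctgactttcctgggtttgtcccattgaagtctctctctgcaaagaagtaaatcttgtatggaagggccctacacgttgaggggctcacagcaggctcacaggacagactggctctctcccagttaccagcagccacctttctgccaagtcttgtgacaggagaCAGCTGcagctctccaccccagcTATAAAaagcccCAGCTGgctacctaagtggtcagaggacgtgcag
Cox8a (chr19:7217567-7217866, minus strand): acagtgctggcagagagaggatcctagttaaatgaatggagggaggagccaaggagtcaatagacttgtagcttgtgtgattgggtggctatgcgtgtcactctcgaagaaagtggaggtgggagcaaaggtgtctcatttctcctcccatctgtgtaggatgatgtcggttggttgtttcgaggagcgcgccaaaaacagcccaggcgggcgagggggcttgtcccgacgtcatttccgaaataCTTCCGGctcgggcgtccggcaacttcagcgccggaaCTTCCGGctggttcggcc
Cycs carries CREB letters from -169 to -162 and NRF1 letters from -61 to -53. Uqcrc1 has NRF1 letters from 7 to 15 and an overlapping pair, 1 on each strand, from 31 to 40. Uqcrfs1 and Cycs are the 2 members with CREB letters, which in Uqcrfs1 run from -29 to -22. Atp5g3 has ERR letters from -52 to -46 and NRF1 letters from 14 to 22. Cox8b holds TATA box letters from 5 to 10, which is after the annotated start. They lie between 2 matches of the E-box letters, from -19 to -14 and from 17 to 22. The Cox8b window has none of the NRF1, ETS or ERR letters. Cox8a holds ETS letters from -5 to 2 and from 33 to 39 and no TATA box letters in this window.

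Together the 41 transcripts made up a sizeable share of the heart transcriptome. They held 3.20% to 3.63% of the counts on nuclear genes in each library. In exercised females the share was 3.52%, 3.56% and 3.45%, and in sedentary females 3.32%, 3.38% and 3.40%. In exercised males it was 3.63%, 3.56% and 3.50%, and in sedentary males 3.47%, 3.36% and 3.20%. By this share every exercised library lay above every sedentary library in both sexes. The counts on nuclear genes include pseudogene rows, which held 11.2% to 20.6% of all counts. The 11.2% belongs to female sedentary 2, where all counts include the mitochondrial rows, and the other libraries held 15.9% or more. Of the counts on protein-coding nuclear genes the members held 4.27% to 4.35% in exercised and 4.04% to 4.22% in sedentary females. In males the groups met, as male exercised 2 and male sedentary 1 both stood at 4.3%. Of the signal summed over the 41 members, Atp5a1 and Atp5b supplied between 30.2% and 33.8% per library. These are the alpha and beta subunits that form the catalytic head of ATP synthase.

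Levels between genes are compared per kilobase of exon, the length over which reads can fall. Atp5a1 was the most abundant member at 1647 ± 109 CPM per kb (SD over 12 libraries), followed by Cox6a2 at 1434 ± 134, Atp5b at 1389 ± 77.8 and Cox4i1, the largest nuclear-encoded subunit of complex IV, at 1075 ± 102. With the longest transcript as the length the order at the top changed, to Atp5b at 3071, Cox4i1 at 2179, Atp5a1 at 1932 and Cox6a2 at 1434. The lowest by either length was Atp5l, subunit g of ATP synthase, at 36.6 ± 3.82 CPM per kb, a value set partly by its long annotated exons of 6443 bases. Complex II subunits, which enter the complex as 1 copy each, ranged from 126 CPM per kb for Sdhc to 460 for Sdha, the flavin-bearing catalytic subunit. With the longest transcript Sdhb stood highest of the 4, at 783 against 654 for Sdha. Of the 40 neighbouring pairs in the order of levels, 36 had ranges over the 12 libraries that overlapped, so most neighbours cannot be ranked.

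**Figure D1:**
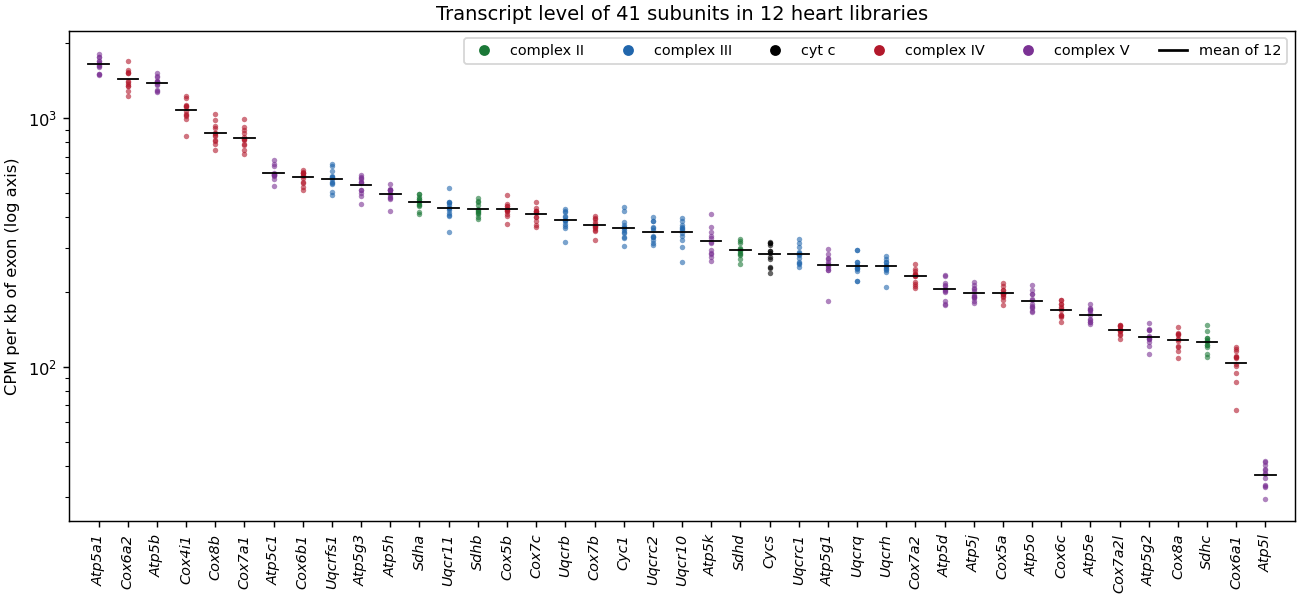
Level of each of the 41 subunits in CPM per kb of exon (log axis), sorted by the mean of 12 libraries (black line), with each library as a point coloured by complex. By this length Atp5a1, Cox6a2 and Atp5b lead at 1389 to 1647 and Atp5l is lowest at 36.6, whereas by the longest transcript Atp5b, Cox4i1 and Atp5a1 lead.

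The muscle isoforms of complex IV dominated in each of the 12 libraries. Cox6a2, the heart and skeletal muscle form, stood 12.3 to 18.2 times above the ubiquitous Cox6a1 per kb of exon. Cox8b was 5.75 to 7.79 times above Cox8a, the pair whose promoters are printed above. Cox7a1 was 3.15 to 4.71 times above Cox7a2. With the longest transcript as the length the 3 ranges were 10.9 to 16.1, 5.1 to 6.92 and 2.43 to 3.63, so the muscle form still led in each library. Male sedentary 3 gave the highest ratio for Cox6a2 (18.2) and Cox7a1 (4.71), and without it the highest values were 14.8 and 3.9. Cox7a2l, a relative of Cox7a2, lay between 129.6 and 147 CPM per kb, the narrowest spread relative to its level among the 41 (SD 5.57). Atp5g1, Atp5g2 and Atp5g3 encode the same mature c subunit of the ATP synthase ring. Per kb of exon, Atp5g3 stood at 536 ± 43.3, Atp5g1 at 257 ± 28.0 and Atp5g2 at 132 ± 9.87 CPM. The order of Atp5g1 and Atp5g2 depends on the length used: their ratio was 1.52 to 2.64 with all exons and 0.71 to 1.23 with the longest transcript.

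Some of these levels are less certain than others. Near copies elsewhere in the genome, of at least 95% identity over at least 150 bases, exist for 15 members, and how reads that fit several places were counted is not given in the sources used here. The copies of Atp5l held 44.7% as many counts as the gene itself, those of Cycs 41.9% and that of Uqcr10 9.61%. Exons of 11 members overlap a gene on the opposite strand, among them Cox4i1, Cox6a2, Atp5a1 and Atp5d, and 2 overlap a gene on the same strand, so a part of their reads could be placed elsewhere. Within groups, the members varied together: the median correlation of 2 members' deviations from their group means over 12 libraries was 0.46 in 211 pairs of 1 complex and 0.32 in 609 pairs of different complexes. These pairs share the same libraries, depth and scaling, and the values are a description.

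A pair of libraries stood apart for these genes. Female sedentary 2, 1 of the 3 with atrial transcripts and the only 1 with mitochondrial counts, was the lowest of the 12 for 22 members. The members' deviations in it from the mean of the other sedentary females had a correlation of 0.55 with log2 transcript length. Over all genes that correlation was -0.031. In the other female libraries the members' value ran from -0.57 (female exercised 1) to 0.56 (female exercised 3), and over all genes from -0.083 to 0.16. The part of length in the results was not tested. Male sedentary 3 was the lowest for 12 members, among them Cox4i1, Cyc1, Atp5g1 and Cox6a1, and at the same time the highest for 6, among them Sdhc, Uqcrc2 and Atp5k. The deviations of the 41 members in male sedentary 3 from the mean of the other male sedentary libraries ran from -0.54 to 0.39 on the log2 scale. They had a correlation of -0.29 with transcript GC content, against -0.19 over all genes. In the other male libraries the members' value ran from -0.38 (male exercised 3) to 0.38 (male exercised 2). Over all genes it ran there from -0.2 to 0.23, so this correlation does not set male sedentary 3 apart. At the other end, male exercised 1 was highest for 16 members and male exercised 2 for 11. Counts over the 41 members are given below also without these libraries.

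**Figure D2:**
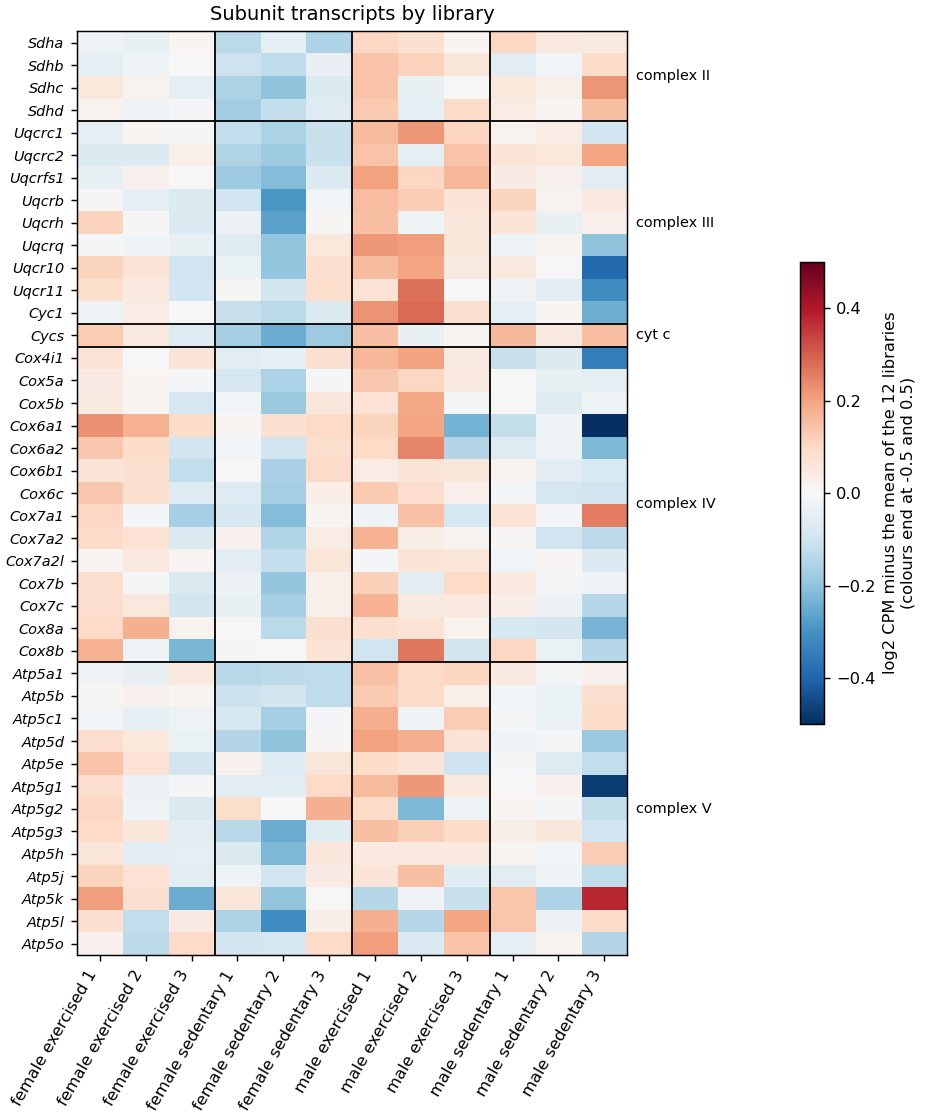
Level of each subunit in each library, as log2 CPM minus its mean over the 12 libraries (red above, blue below, colours ending at -0.5 and 0.5), with lines between groups and complexes. Female sedentary 2 is the lowest library for 22 members, and male sedentary 3 combines deep blue (12 lowest values) with red (6 highest values).

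In females most subunit transcripts lay slightly higher after exercise, and none passed the test. All libraries were fitted in 1 edgeR quasi-likelihood model and p-values adjusted by Benjamini-Hochberg over 16213 tested genes, all 41 members among them. Log2 fold changes were above 0 in 39 of 41 members, with a median of 0.074 against 0.00028 over all genes, of which 50.1% were above 0. The largest was 0.24. The typical standard error (SE) of a member was 0.073, about as large as that median. None of the 41 had an adjusted p under 0.05, nor had any gene (0%), and the smallest adjusted p of a member was 1.0. At an unadjusted p under 0.05 stood 5 members, against 3.93% of all genes. That count was 2 without female sedentary 1 or without female sedentary 2, 3 without female exercised 1 or without female exercised 2, and 9 without female sedentary 3. In 11 members the 3 exercised libraries all lay above the 3 sedentary ones, an arrangement found in 5.42% of all genes, and in 0 members did all lie below (4.37% of all genes).

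Cycs, the gene of cytochrome c, had the largest difference in females. Its level was 1056, 999 and 924 CPM in the exercised and 861, 813 and 852 CPM in sedentary females, so the groups did not overlap. The log2 fold change was 0.24 ± 0.069 (SE; unadjusted p = 0.00374, adjusted p = 1.0, edgeR). Its 4 near copies, named above for their counts, make this value less certain.

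In complex V, Atp5g3 came next at 1248, 1211 and 1123 CPM against 1058, 982 and 1117 CPM, a log2 fold change of 0.18 ± 0.067. Atp5a1 stood at 5086, 5025 and 5331 CPM in the exercised and 4677, 4708 and 4715 CPM in sedentary females, and Atp5b at 5900.0, 5965 and 5919 against 5452, 5508 and 5375 CPM. Their log2 fold changes were 0.13 ± 0.050 and 0.12 ± 0.053, and neither gene overlapped between groups. For the other ring genes the groups overlapped: Atp5g1 differed by 0.018 ± 0.11 and Atp5g2 by -0.085 ± 0.084, the lowest value among the 41.

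In complex III all 9 members had values above 0, with a median of 0.11. Uqcrfs1, the Rieske iron-sulphur protein that takes electrons from ubiquinol, measured 756, 788 and 775 CPM in exercised against 685, 668 and 741 CPM in sedentary females (0.15 ± 0.060). Uqcrc1, a core structural subunit, and Cyc1, the cytochrome c1 that passes electrons on to cytochrome c, also lay higher in each exercised library, by 0.12 ± 0.057 and 0.11 ± 0.073. So did Uqcrc2, which makes 4 of 9 without overlap.

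In complex II all 4 lay above 0 (median 0.10), and 3 of them did not overlap. Sdhc, a membrane anchor, stood at 425, 414 and 397 CPM against 367, 356 and 390 CPM (0.15 ± 0.071). Sdha differed by 0.094 ± 0.055 and Sdhb, the iron-sulphur subunit, by 0.069 ± 0.058. Only the libraries of Sdhb overlapped between groups.

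In complex IV 13 of 14 members were above 0 in females with a median of 0.065, and in 0 of 14 were the groups apart. The median of complex V was 0.068, and no test compared the complexes. Cox4i1 differed by 0.050 ± 0.075. The muscle isoforms differed by 0.052 ± 0.095 for Cox6a2, 0.072 ± 0.093 for Cox7a1 and -0.040 ± 0.11 for Cox8b. Their ubiquitous partners differed by 0.10 ± 0.14 for Cox6a1, 0.061 ± 0.075 for Cox7a2 and 0.12 ± 0.072 for Cox8a. Cox7a2l differed by 0.063 ± 0.061. Each of these values lies within 2 SE of 0.

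The female pattern changed when libraries with atrial transcripts were left out. Without female exercised 2, female sedentary 1 and female sedentary 2, which leaves 2 exercised and 1 sedentary female and assumes that the lone library varies like the others, 19 of 41 members were above 0 and the median was -0.0083. Without female sedentary 2 alone, 31 of 41 were above 0 with a median of 0.026. Cycs kept most of its difference, at 0.22 ± 0.12 in the 9 libraries. The values of Atp5a1 and Atp5b, at 0.14 ± 0.096 and 0.14 ± 0.10, were not reduced. Atp5g3 moved to 0.087 ± 0.11, Sdhc to 0.078 ± 0.12 and Uqcrfs1 to 0.049 ± 0.10. Summed over 6 atrial markers the level was 78.1 to 393 CPM in the exercised and 257 to 424 CPM in sedentary females, with Bmp10 near 0 throughout. The sum of 257 CPM belongs to female sedentary 3, where Nppa alone stood at 249 CPM and Myl7 at 0.972 CPM. The 10 ventricular markers summed to 83100 to 84500 CPM in the exercised and 79200 to 82400 CPM in sedentary females. Of these 10 markers, 9 had log2 fold changes above 0 (median 0.0568). Erythroid transcripts, 7 genes of red blood cells, summed to 3630 and 1750 CPM in female sedentary 1 and 2 and to no more than 293 CPM in each of the other 10 libraries. The 7 macrophage markers summed to 231 to 245 CPM in the exercised and 173 to 225 CPM in sedentary females. Above 0 were 7 of 7 macrophage markers in females and 6 of 7 in males. For smooth muscle these counts were 5 of 5 and 0 of 5, and for endothelium 2 of 8 and 8 of 8. The part of these cells in the result was not tested.

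**Figure D3:**
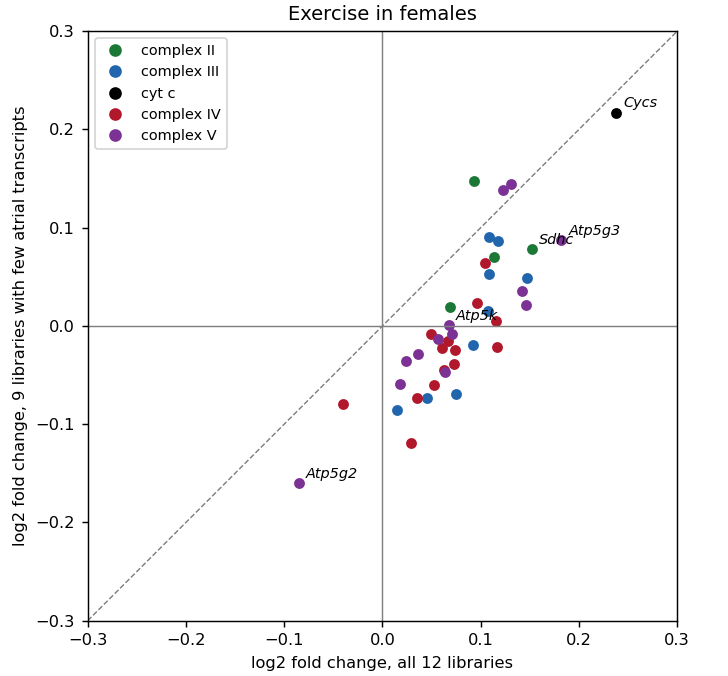
Exercise log2 fold change of each subunit in females from all 12 libraries (horizontal axis) and from the 9 libraries with few atrial transcripts (vertical axis), coloured by complex, with the line of equality dashed. Above 0 are 39 members on the horizontal axis and 19 on the vertical axis, and Cycs is highest on both.

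In males again no member was called. The median difference was 0.17 in complex III, 0.13 in complex IV and 0.083 in complex V, and no test compared the complexes. Log2 fold changes were above 0 in 33 of 41 members, with a median of 0.100 against 0.00068 over all genes. They ran from -0.23 for Atp5k to 0.31 for Cox4i1. Without male sedentary 3, Atp5k stood at -0.091 and Cox4i1 at 0.23. No member and no gene (0%) had an adjusted p under 0.05 by edgeR, and the smallest adjusted p of a member was 0.567. At an unadjusted p under 0.05 stood 10 members against 7.84% of all genes. The exercised libraries lay entirely above the sedentary ones in 16 members, against 6.17% of all genes, and entirely below in 0, against 6.16%.

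Cox4i1 had the largest difference, at 1861, 1907 and 1713 CPM in the exercised and 1538, 1583 and 1308 CPM in sedentary males. The groups were apart, with the lowest value in male sedentary 3. The log2 fold change was 0.31 ± 0.075 (unadjusted p = 0.00104, adjusted p = 0.567, edgeR), and 0.23 ± 0.066 without male sedentary 3. By DESeq2, another count model, Cox4i1 had an adjusted p of 0.0492, the only member under 0.05 there, where 0.405% of the genes with an adjusted p passed. Within complex IV, 13 of 14 members were above 0 (median 0.13) and 7 did not overlap.

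Of the isoform pairs of complex IV, the ubiquitous forms Cox8a, Cox7a2 and Cox6a1 differed by 0.19 ± 0.072, 0.15 ± 0.075 and 0.26 ± 0.14. The muscle forms Cox8b, Cox7a1 and Cox6a2 differed by 0.056 ± 0.11, -0.094 ± 0.093 and 0.18 ± 0.096. Cox7a2l differed by 0.064 ± 0.062. Only Cox8a and Cox7a2 of these had groups that did not overlap. Without male sedentary 3 the values of Cox6a1, Cox6a2, Cox7a1 and Cox8b were 0.10 ± 0.11, 0.12 ± 0.10, -0.018 ± 0.095 and -0.0040 ± 0.12. The ratio of muscle to ubiquitous form itself overlapped between exercised and sedentary males for each of the 3 pairs.

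In complex III 8 of 9 members lay above 0 with a median of 0.17, and 5 did not overlap. Cyc1 stood at 910, 946 and 823 CPM in exercised against 753, 783 and 657 CPM in sedentary males, a log2 fold change of 0.29 ± 0.073 (adjusted p = 0.567, edgeR). Uqcrc1 stood at 1303, 1355 and 1256 CPM against 1181, 1199 and 1091 CPM (0.17 ± 0.057). In both, male sedentary 3 was the lowest library, and without it the values were 0.21 ± 0.067 and 0.13 ± 0.056. Uqcrq, a small subunit of the membrane part, measured 542, 538 and 485 CPM against 457, 470.5 and 406 CPM (0.23 ± 0.077). Uqcrfs1 measured 892, 834 and 872 CPM against 799, 788 and 748 CPM (0.15 ± 0.060). Each of these 4 kept exercised and sedentary males apart.

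Complex V was mixed. Atp5d, the delta subunit of the central stalk, stood at 452, 446.5 and 412 CPM in the exercised and 387, 392 and 346 CPM in sedentary males (0.22 ± 0.074). Atp5g1 was at 1402, 1461 and 1298 CPM against 1255, 1273 and 904 CPM (0.28 ± 0.11), and without male sedentary 3, the library at 904, the value was 0.13 ± 0.072. Atp5a1 and Atp5g3 differed by 0.096 ± 0.050 and 0.12 ± 0.067 without overlap, Atp5b by 0.070 ± 0.053 with overlap, and Atp5g2 by -0.010 ± 0.084. Without male sedentary 3 Atp5g3 differed by 0.074 ± 0.068. Of the 13, 11 were above 0 and 4 did not overlap.

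Complex II and cytochrome c stood near or below 0 in males. Only Sdhb of the 4 complex II genes was above 0, at 0.100 ± 0.058, while Sdha differed by -0.0016 ± 0.055 and Sdhc by -0.067 ± 0.071. Cycs measured 1071, 942 and 976 CPM in the exercised and 1081, 996 and 1072 CPM in sedentary males (-0.075 ± 0.069). The groups overlapped for each of these genes.

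Without male sedentary 3, 34 of 41 members were above 0 in males, with a median of 0.093. Of the 41, 38 had the same sign as with it, 2 turned from below to above 0 and 1 the other way. Unadjusted p-values under 0.05 then belonged to 4 members instead of 10, and without male exercised 1 to 6. With offsets for GC content, added after the data were seen, 36 members were above 0 with a median of 0.096, but Atp5d moved to 0.12 ± 0.067, Uqcrc1 to 0.10 ± 0.050 and Cox8a to 0.10 ± 0.069. In males the 10 ventricular markers summed to 82300 to 93000 CPM in the exercised and 84600 to 91700 CPM in sedentary males. Of these 10 markers, 4 had log2 fold changes above 0 (median -0.0415). A list of 12 early response genes, which answer quickly to handling and stress, had all 12 members above 0 in both sexes, with medians of 0.67 in males and 0.43 in females. Its summed level was 4830 to 9500 CPM in exercised against 3380 to 5320 CPM in sedentary males, and 7710 to 8620 CPM against 5700 to 6380 CPM in females. Its part in the result was not tested.

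**Figure D4:**
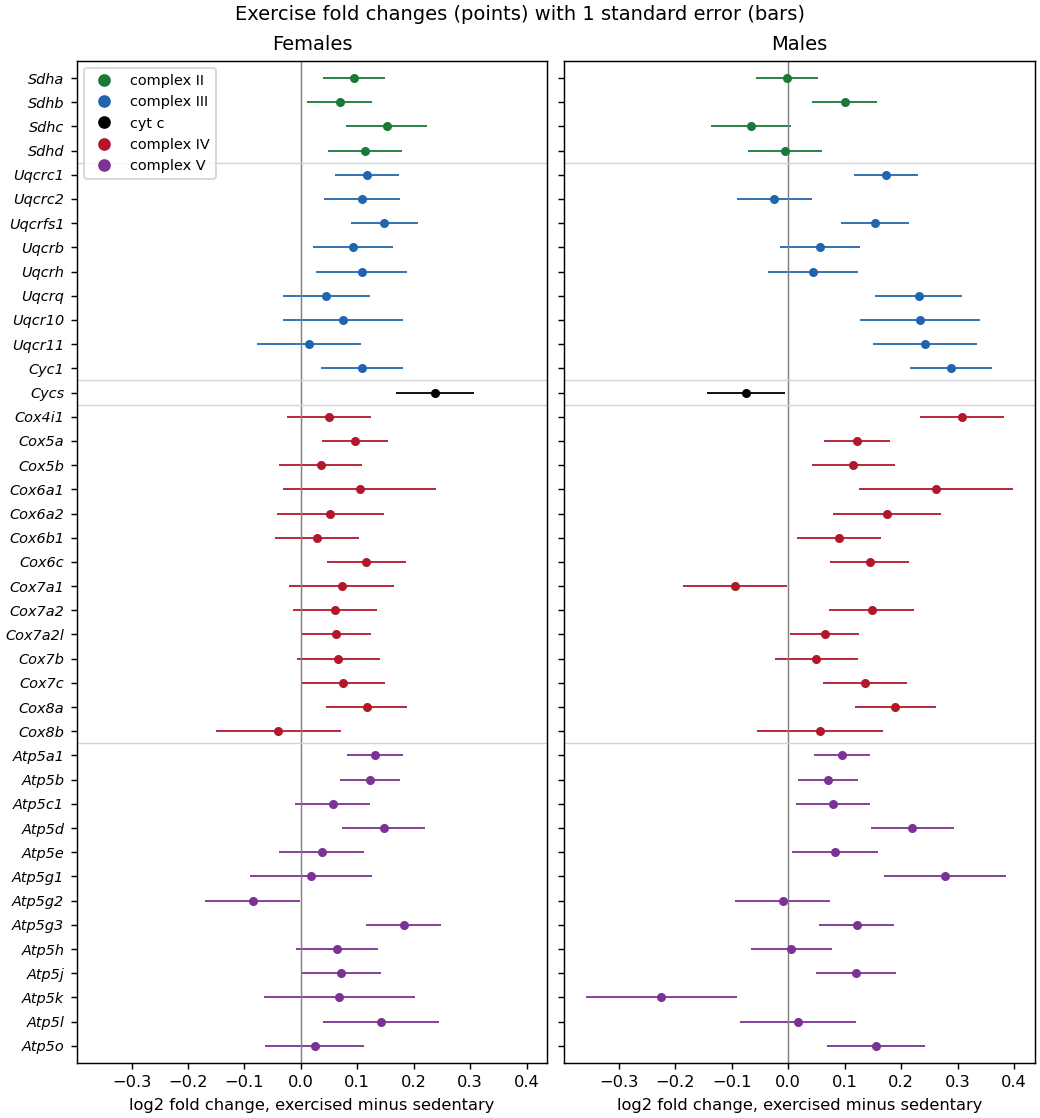
Log2 fold change of exercised against sedentary hearts for each of the 41 subunits in females (left) and males (right), with bars of 1 SE, coloured and separated by complex. In females 39 and in males 33 points lie right of 0. Cycs is highest in females (0.24) and Cox4i1 in males (0.31).

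Seen over both sexes, 32 members were above 0 in each, 7 above in females and below in males (Sdha, Sdhc, Sdhd, Uqcrc2, Cycs, Cox7a1 and Atp5k), 1 the reverse (Cox8b) and 1 below in both (Atp5g2). Exercised libraries lay above sedentary ones without overlap in females and again in males for 5 members, Uqcrc1, Uqcrfs1, Cyc1, Atp5a1 and Atp5g3, an arrangement shared by 66 of all genes (0.407%). The average of the sex-specific effects was above 0 in 38 members with a median of 0.090, against 0.0012 over all genes. For Cyc1 it was 0.20 ± 0.051, for Uqcrc1 0.15 ± 0.040, for Uqcrfs1 0.15 ± 0.042, for Atp5d 0.18 ± 0.052, for Cox4i1 0.18 ± 0.053 and for Atp5g3 0.15 ± 0.047. None of the 41 and no gene (0%) passed an adjusted p of 0.05 by edgeR, the smallest adjusted p of a member being 0.782. At an unadjusted p under 0.05 were 12 members against 6.28% of all genes. DESeq2 gave adjusted p-values under 0.05 for 3 members, against 0.61% of the genes to which it gave one: 0.0333 for Atp5a1, 0.0422 for Uqcrc1 and 0.0498 for Uqcrfs1. The average was above 0 in 37 members without female sedentary 2 (median 0.075) and in 38 without male sedentary 3 (median 0.083).

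Whether the exercise effect differed between the sexes was tested as an interaction, the female minus the male effect. It was above 0 in 15 members and below in 26, with a median of -0.031 and an SE of about 0.10 per gene. No member and no gene (0%) passed, the smallest adjusted p of a member being 0.93 (edgeR). At an unadjusted p under 0.05 stood 3 members, against 4.74% of all genes. These were Cycs at 0.31 ± 0.097, Cox4i1 at -0.26 ± 0.11 and Sdhc at 0.22 ± 0.10, and the next was Cyc1 at -0.18 ± 0.10. Without male sedentary 3 these 4 values were 0.30 ± 0.10, -0.18 ± 0.088, 0.16 ± 0.095 and -0.11 ± 0.089. The median over the 41 was -0.015 without male sedentary 3 (17 above 0) and -0.070 without female sedentary 2 (11 above 0). The number of members at an unadjusted p under 0.05 was 1 without male sedentary 3, female exercised 2 or male exercised 2, and 6 without male sedentary 2. A difference between the sexes in the response of these genes was thus not detectable with 3 libraries a group.

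**Figure D5:**
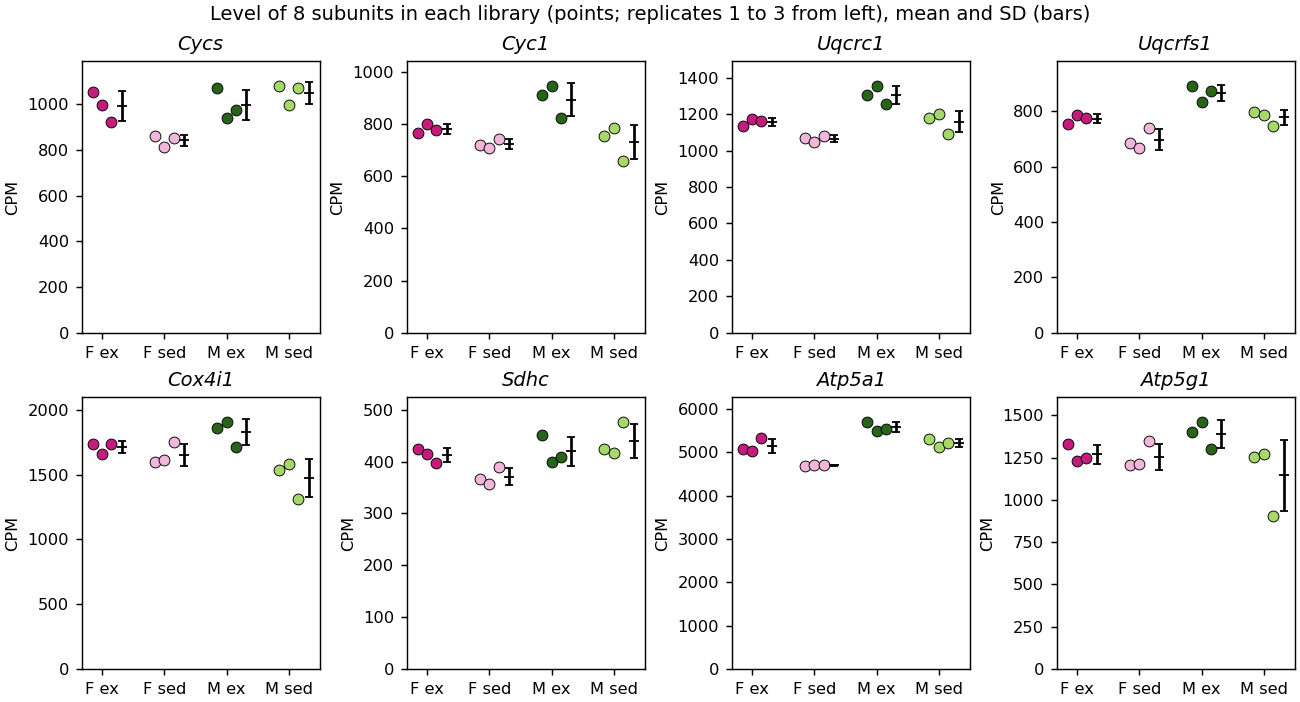
Level in CPM of 8 subunits in each of the 12 libraries (points, replicates 1 to 3 from left; F female, M male, ex exercised, sed sedentary), with the group mean and SD as bars and axes from 0. Cycs is lowest in the 3 sedentary females (813 to 861), and Cox4i1 and Atp5g1 are lowest in male sedentary 3.

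Females and males were also compared within each condition, and here Cycs was the single member to pass by edgeR. Among sedentary hearts it stood at 861, 813 and 852 CPM in females and at 1081, 996 and 1072 CPM in males. The log2 difference, female minus male, was -0.32 ± 0.069 (adjusted p = 0.0309, edgeR), and every female library lay below every male one. Of all genes 2.21% passed this test, so 1 of 41 members is near the background. The call was lost without any 1 of female exercised 2, the 3 sedentary female libraries, male sedentary 1 or male sedentary 3, with adjusted p-values from 0.0525 to 0.12 and differences from -0.33 to -0.29. It was also lost with offsets for GC content (-0.23, adjusted p = 0.123, edgeR), without a filter on low counts (0.0595) and when the 3 libraries with atrial transcripts were left out (0.364). DESeq2 gave it an adjusted p of 0.001. By voom, a linear model of log counts, Cycs and Uqcrc2 passed (2.73% of all genes did), and with the GC offsets Uqcrc1 passed (1.95%). Among exercised hearts the difference of Cycs was -0.0053 ± 0.069.

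Over the 41 members the sedentary sex difference was above 0 in 16 and below in 25, with a median of -0.042 against 0.014 over all genes. Without female sedentary 2 it was above 0 in 20 and below in 21, with a median of -0.0020, and without male sedentary 3 above in 9 and below in 32, with a median of -0.063. At an unadjusted p under 0.05 stood 12 members, against 18.4% of all genes, and 7 without female sedentary 1, 8 without female sedentary 2. Females lay entirely below males in 10 members (12.8% of all genes) and entirely above in 2, Cox4i1 and Cox6a1 (12.2%). After Cycs, the smallest p-values belonged to Uqcrc2 (-0.25 ± 0.067, adjusted p = 0.0695), Sdhc (-0.24 ± 0.071, 0.0915) and Sdha (-0.18 ± 0.055, 0.111), all by edgeR. Complex II was lower in sedentary females for all 4 members (median -0.18), whereas complex IV was split, with 8 of 14 above 0. DESeq2 called 5 members lower in females, Cycs, Atp5a1, Uqcrc2, Sdha and Sdhc, against 5.97% of the genes to which it gave an adjusted p. In the 9 libraries with few atrial transcripts, where 1 sedentary female remains, the median was 0.021 and no member passed by edgeR.

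Among exercised hearts 36 of 41 members were lower in females, with a median of -0.073 against 0.0037 over all genes. No member passed an adjusted p of 0.05 by edgeR, against 0.16% of all genes, and 6 had an unadjusted p under 0.05, against 9.84%. These counts moved with single libraries: members above 0 numbered 14 without female exercised 3, 9 without male exercised 1 or male exercised 2 and 3 without female exercised 1, instead of 5. Members at an unadjusted p under 0.05 numbered 1 without female exercised 1, 2 without male exercised 1 and 3 without female exercised 2. The libraries of females lay below those of males without overlap in 9 members (7.54% of all genes) and above in 0 (6.79%). All 9 complex III members were below 0, with a median of -0.15. The smallest p-values belonged to Uqcrc1 (-0.18 ± 0.057, adjusted p = 0.297), Uqcrfs1 (-0.16 ± 0.060, 0.364), Cyc1 (-0.20 ± 0.073, 0.375) and Uqcrq (-0.18 ± 0.077, 0.442), all by edgeR. The comparisons in sedentary and exercised hearts use different libraries, but each shares its libraries with an exercise comparison above.

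Other genes of the same pathway were counted for orientation. Of 36 complex I subunits, the entry point for electrons from NADH, 32 lay above 0 in females (median 0.067) and 29 in males (0.12). Of 10 further subunits of complexes II to V, among them Atp5mpl, a small membrane subunit of ATP synthase, 8 lay above 0 in females and 7 in males, with Atp5mpl at 0.16 ± 0.070 in each sex. Of 14 citric acid cycle genes, a cycle that complex II belongs to, 13 lay above 0 in females (median 0.11) and 7 in males (-0.00019). None of these passed the edgeR test for exercise in either sex. Among sedentary hearts all 14 citric acid cycle genes were below 0 in females against males (median -0.23), and 6 passed, against 2.21% of all genes. In that comparison 1 of the 36 complex I subunits and 0 of the 10 further subunits passed. So did 4 of the 33 assembly factors and 0 of the 14 regulators described next. With 1 library left out at a time, the genes that passed there ranged from 68 to 462.

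Assembly factors, proteins that build the complexes but do not stay in them, were spread around 0, with 22 of 33 above in females (median 0.032) and 17 of 33 in males (0.028). Uqcc1, which helps assemble complex III, differed by -0.27 ± 0.068 in males, opposite in sign to most complex III subunits, and had an adjusted p of 0.567 (edgeR). Fmc1, an assembly factor of ATP synthase, differed by 0.36 ± 0.11. Of 14 transcriptional regulators of mitochondrial genes, 10 lay above 0 in females and 6 in males. Ppargc1a, the coactivator that drives mitochondrial gene expression, stood at 85.1 ± 18.9 CPM in the exercised and 135 ± 20.0 CPM in sedentary males (SD, n = 3 each; log2 fold change -0.66 ± 0.18, adjusted p = 0.588, edgeR), and Ppara, a receptor that controls fatty acid use, differed by -0.50 ± 0.13. In females Ppargc1a stood at 85.5 ± 8.92 CPM with and 88.8 ± 16.8 CPM without exercise, and Ppara differed by 0.19 ± 0.13.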

How the data were processed

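RNA of 12 bulk heart libraries was compared in 4 groups of 3. The deposited table holds raw read counts per gene, made by the authors with Trimmomatic 0.36, STAR 2.5.2b and featureCounts of Subread 1.5.2 on GRCm38, per the submitters' processing notes. Neither the strand setting nor the annotation release is given in the sources used here. Coordinates, exon lengths and symbols came from GENCODE M21 (GRCm38). A read-through row that also carries the symbol Atp5o, with 0 counts, was left out. Tests were run with edgeR 4.0.16 (R 4.3.3): filterByExpr kept 16213 genes, libraries were scaled by TMM, and 1 group-means model with 8 residual degrees of freedom and robust quasi-likelihood tests gave 6 contrasts, adjusted by Benjamini-Hochberg over all genes tested at 0.05. The script was tested on simulated data. CPM use the TMM-scaled library sizes, and precision is limited by the 3 libraries a group. The groups share no replicate numbers, so no pairing was used.

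Members and gene lists were chosen with earlier results of these data known. Named with values were the 6 members of smallest p in each exercise contrast and their average (4 in the interaction and the sex contrasts), the isoform sets, and the catalytic or electron-carrying subunits, whatever their result. Alternatives were other scalings, filters, DESeq2 1.42.0, voom of limma 3.58.1, libraries left out and, added after the data were seen, offsets for GC content. Promoter windows are from RefSeq.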

Additional observations from a re-analysis of the deposited data

How the results depend on the processing

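With 3 libraries a group and a member SE near 0.073 on the log2 scale, differences as small as the members' medians could not be resolved gene by gene. Under DESeq2 the tested genes that passed numbered 1 for exercise in females, 25 in males (with 1 member), 10 for the interaction, 14 for the average (with 3 members), 866 between sedentary sexes (with 5 members) and 167 between exercised sexes. Without a filter, a fit that takes in many rows near 0, these counts were 357, 327, 173, 399, 1317 and 531, and the cause was not tested. With only the groups compared, 15 genes passed between exercised sexes. Under voom 2 members, Cycs and Uqcrc2, passed between sedentary sexes. With GC offsets Uqcrc1 passed there in place of Cycs.

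In the 9 libraries with few atrial transcripts, which are fewer samples, the member median was -0.0083 for exercise in females, -0.109 for the interaction and 0.0213 between sedentary sexes, where 14 genes and 0 members passed. Of the 41 exercise values in females 20 changed sign there, among them those of the members named by rule, Cox6a2 (-0.0605), Cox7a1 (-0.039), Cox7a2 (-0.0229), Cox7a2l (-0.0445), Cox8a (-0.0216), Atp5g1 (-0.0595) and Cox4i1 (-0.0083). In males, of the members named by rule, values near 0 changed sign for Cox8b (-0.00858) and Atp5g2 (0.00668) under voom and for Sdha under DESeq2 (0.000663) and GC offsets (0.0171).

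With 1 library left out at a time, genes that passed ran from 0 to 1 for exercise in females, for the interaction and for the average, from 68 to 462 between sedentary sexes (with 0 to 2 members) and from 17 to 55 between exercised sexes. The lowest of these, 68, came without male sedentary 3. In females Cox8b ran from -0.149 to 0.053 and Atp5g1 from -0.0212 to 0.0707, and in males Cox8b ran from -0.0736 to 0.123, Atp5g2 from -0.087 to 0.0711 and Sdha from -0.024 to 0.0229. Of the fold changes of named members, 678 of those with 1 library left out and 607 of those under other settings kept their direction and their side of the threshold. No paired analysis was possible because the labels give the groups no shared replicate numbers.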

Other observations

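A few members and ratios outside the comparisons above were singled out after their values were seen. Cox6a2, the muscle isoform, was less dominant over Cox6a1 in females than in males. Its level per kb was 13.1, 13.2 and 12.3 times that of Cox6a1 in exercised and 13.7, 12.4 and 13.8 times in sedentary females. In males it was 13.8, 14.4 and 14.8 times with exercise and 14.5, 13.9 and 18.2 times without. Females lay below males without overlap in both conditions, by a narrow margin, and no test was run on this ratio. Both Cox6a genes were members whose lowest value of the 12 lay in male sedentary 3.

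The balance of the 3 c subunit genes depended on the pair compared. The ratio of Atp5g1 to Atp5g3 per kb was 0.474, 0.451 and 0.493 in exercised and 0.507, 0.547 and 0.535 in sedentary females, and the groups did not overlap. In males it was 0.482, 0.513 and 0.464 with exercise and 0.468, 0.467 and 0.368 without, where the groups overlapped. The ratio of Atp5g1 to Atp5g2 went the other way and was higher with exercise without overlap in both sexes. It was 1.91, 1.93 and 2.02 against 1.76, 1.87 and 1.83 in females, and 2.03, 2.64 and 2.04 against 1.92, 1.98 and 1.52 in males. The margins were narrow, at 1.91 against 1.87 in females and 2.03 against 1.98 in males. No test was run on these ratios. Atp5k, subunit e of ATP synthase, had the lowest exercise value of the 41 in males, at 177, 193 and 181 CPM against 215, 175 and 254 CPM (log2 fold change -0.23 ± 0.13). Its highest level of the 12 lay in male sedentary 3, and without that library the value was -0.091 ± 0.13.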
